A study of Mus musculus with 9 samples.

Results

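The Ifit and Mx genes are interferon-stimulated genes whose products act against viruses inside the cell. Of the 47937 genes in the count table, 6 are described here, namely Ifit1, Ifit2, Ifit3 and Ifit3b on chromosome 19 and Mx1 and Mx2 on chromosome 16. They were selected by symbol from a family already known to be higher in both mutants of these data, so their differences between genotypes are a description. They carry no p-value of their own, and where they are counted as called by the fit over all genes, nothing is supported with that count. RNA-seq was performed on 9 libraries of mouse embryonic fibroblasts (MEFs), with 3 libraries per genotype, to ask what the loss of paired H3K9 lysine methyltransferases (KMTs) does to transcription. WT stands for the control MEFs, S1S2 for MEFs lacking Suv39h1 and Suv39h2, and G9Gl for MEFs lacking G9a (Ehmt2) and Glp (Ehmt1). All 3 genotypes share a conditional allele of Eset1 (Setdb1) and a tamoxifen-inducible Cre, and in the study's methods the WT cells are the parental line before Eset1 deletion. The methods name a single CRISPR/Cas9 clone for each mutant, so genotype and clone cannot be told apart, and errors below measure the spread between cultures of 1 line. The labels give no age of the embryos, and whether these libraries received 4-hydroxytamoxifen is not given in the sources used here.

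Type I interferons are secreted after cytosolic or endosomal sensors detect foreign or misplaced nucleic acid. They bind the receptor Ifnar1/Ifnar2, whose kinases Jak1 and Tyk2 activate STAT proteins, and a complex that contains Stat2 and Irf9 then binds the interferon-stimulated response element (ISRE) in the promoters of target genes. Ifit proteins are tetratricopeptide-repeat proteins that bind viral RNA, with Ifit1 recognising mRNA caps that lack ribose methylation, and Mx proteins are dynamin-like GTPases that trap viral nucleocapsids. In fibroblasts these genes are kept low at rest and are among the most strongly induced by interferon.

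In the GENCODE annotation (GRCm38) the Ifit genes lie on the plus strand, with Ifit2 at chr19:34550694-34576419, Ifit3 at chr19:34583531-34588731, Ifit3b at chr19:34607970-34613401 and Ifit1 at chr19:34640871-34650009. Mx1 lies on the minus strand at chr16:97447035-97462907 and Mx2 on the plus strand at chr16:97535308-97560900. No other annotated gene overlaps any of the 6.

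The promoters are shown because Ifit1, Ifit3 and Ifit3b hold a pair of ISRE-type matches and Ifit2 does not. The windows run from 250 bases before to 50 bases after each RefSeq start (GRCm38.p6), and 4 of the 6 genes matched an entry, with 5 windows. The motif searched was GAAANNGAAA on both strands, and matches are in capitals. The stretches end 21 bases before the RefSeq start. They lie on the plus strand, which is the strand of all 4 genes, at chr19:34640749-34640868 for Ifit1, chr19:34583329-34583508 for Ifit3, chr19:34607757-34607936 for Ifit3b and chr19:34550494-34550673 for Ifit2.
Ifit1: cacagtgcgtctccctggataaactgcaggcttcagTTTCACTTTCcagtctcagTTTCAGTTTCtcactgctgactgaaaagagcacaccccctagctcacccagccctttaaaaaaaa
Ifit3: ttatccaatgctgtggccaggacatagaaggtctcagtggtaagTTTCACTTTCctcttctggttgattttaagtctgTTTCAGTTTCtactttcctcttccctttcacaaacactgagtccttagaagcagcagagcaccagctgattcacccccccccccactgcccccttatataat
Ifit3b: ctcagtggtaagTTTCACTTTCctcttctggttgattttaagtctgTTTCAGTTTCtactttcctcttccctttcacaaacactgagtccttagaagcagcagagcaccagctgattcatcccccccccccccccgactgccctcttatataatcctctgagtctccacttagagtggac
Ifit2: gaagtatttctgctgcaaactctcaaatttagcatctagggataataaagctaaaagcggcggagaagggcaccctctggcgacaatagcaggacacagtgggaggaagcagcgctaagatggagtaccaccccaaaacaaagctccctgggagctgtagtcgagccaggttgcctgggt

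Ifit1, Ifit3 and Ifit3b each held 2 matches with the same letters, TTTCACTTTC followed by TTTCAGTTTC, read on the plus strand. The nearer match began 85 bases before the start of Ifit1, 122 bases before that of Ifit3 and 154 bases before that of Ifit3b. The windows of Ifit3 and Ifit3b share an identical run of 169 bases that contains both matches. Among all 32851 promoter windows of this length, 3.44% held at least 1 match and 0.225% held 2 or more. Neither of the 2 Ifit2 windows held a match, and the first of them held 1 match to TTCNNNGAA, the GAS-type motif, which reads the same on both strands and occurred in 8.3% of all windows. The Ifit1 matches also lie in the window of Ifit1bl2, a relative transcribed away from Ifit1 on the minus strand. No match in a window says only that these letters are not there.

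Ifit1 gave the highest count of any Ifit or Mx gene after Ifit2. Its levels were 9.41, 11.3 and 10.4 CPM (counts scaled to library size) in WT libraries 1, 2 and 3, against 84.6, 90.1 and 99.1 CPM in S1S2 and 53.2, 36.9 and 39.0 CPM in G9Gl. The genotypes did not overlap, with S1S2 highest, G9Gl between and WT lowest. The mean ratio to WT was 8.82-fold in S1S2 and 4.16-fold in G9Gl, or a log2 fold change of 3.14 ± 0.10 (SE, n = 3 per genotype) and 2.06 ± 0.18.

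Ifit2, whose product has been tied to cell death, had the highest level of the 6 genes in every library, also per kb of exon, and changed least among the Ifit genes. It stood at 51.1, 50.1 and 56.0 CPM in WT, at 149.7, 149 and 160.4 CPM in S1S2 and at 79.3, 71.2 and 77.1 CPM in G9Gl. Again the genotypes did not overlap, and the order was that of Ifit1. The log2 fold change was 1.55 ± 0.06 in S1S2 and 0.53 ± 0.07 in G9Gl, which is 2.92-fold and 1.45-fold. The G9Gl value lies under the 2-fold limit used for a call, which together with an adjusted p of at most 0.01 in edgeR defines a called gene throughout.

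Ifit3 was at 1.69, 1.32 and 1.51 CPM in WT, at 13.7, 13.1 and 13.6 CPM in S1S2 and at 16.2, 9.94 and 9.72 CPM in G9Gl. Both mutants lay above WT, and S1S2 lay inside the range of G9Gl. The mean was 8.93-fold that of WT in S1S2 and 7.92-fold in G9Gl, with log2 fold changes of 3.15 ± 0.10 and 2.98 ± 0.26. Ifit3b is a near copy of Ifit3 in the same cluster, with Ifit1bl1 between them. It was at 0.123, 0.198 and 0.226 CPM in WT, which is 4 to 7 counts, and at 2.53, 2.59 and 2.585 CPM in S1S2 and 4.49, 2.98 and 3.65 CPM in G9Gl. For this gene G9Gl was above S1S2 without overlap, and the log2 fold changes of 3.79 ± 0.19 in S1S2 and 4.32 ± 0.25 in G9Gl were the highest among the 6 genes.

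Ifit3 and Ifit3b are hard to separate by reads. Of all 75-base stretches of the annotated Ifit3 transcripts 41.1% also occur in Ifit3b, and of those of Ifit3b 35.7% occur in Ifit3, so the counting could have divided reads between them. Ifit3b took 10.9% ± 3.59 of the counts of the pair in WT, 16% ± 0.46 in S1S2 and 24.03% ± 2.91 in G9Gl (SD, n = 3). Summed, the pair had a log2 fold change of 3.24 in S1S2 and 3.20 in G9Gl. Between the mutants the sum differed by -0.04, where Ifit3b alone differed by 0.53 ± 0.17. Sharing was lower elsewhere, at 5.19% for Ifit1 (with Ifit1bl2), 1.71% for Mx1 and 2.01% for Mx2, and it was 0% for Ifit2.

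The Mx genes were low in WT and were highest in G9Gl, which is the reverse of Ifit1 and Ifit2. Mx1, the nuclear member that acts on influenza-type viruses, was at 0.553, 0.363 and 0.129 CPM in WT, at 1.15, 0.874 and 0.658 CPM in S1S2 and at 2.32, 1.795 and 1.34 CPM in G9Gl. These values rest on 4 to 18 counts per WT library and 14 to 66 in the mutants. No genotype overlapped another, but the WT libraries spread over a wide range for this gene. The log2 fold change was 1.34 ± 0.53 in S1S2, which was not called, and 2.35 ± 0.53 in G9Gl, which was. Leaving out 1 library moved the S1S2 value from 0.94 without WT replicate 3 to 1.84 without WT replicate 1, and it was called only in the latter case.

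Mx2, the cytoplasmic member, was at 0.799, 0.529 and 1.03 CPM in WT, at 1.93, 2.70 and 3.48 CPM in S1S2 and at 7.40, 4.06 and 3.98 CPM in G9Gl. The 3 genotypes did not overlap. Its log2 fold change was 1.77 ± 0.35 in S1S2 and 2.70 ± 0.39 in G9Gl, or 3.44-fold and 6.54-fold. The annotation lists Mx2 as a polymorphic pseudogene, and many inbred mouse strains carry defective alleles of both Mx genes, so an RNA level here does not show that a working protein was made.

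**Figure D1:**
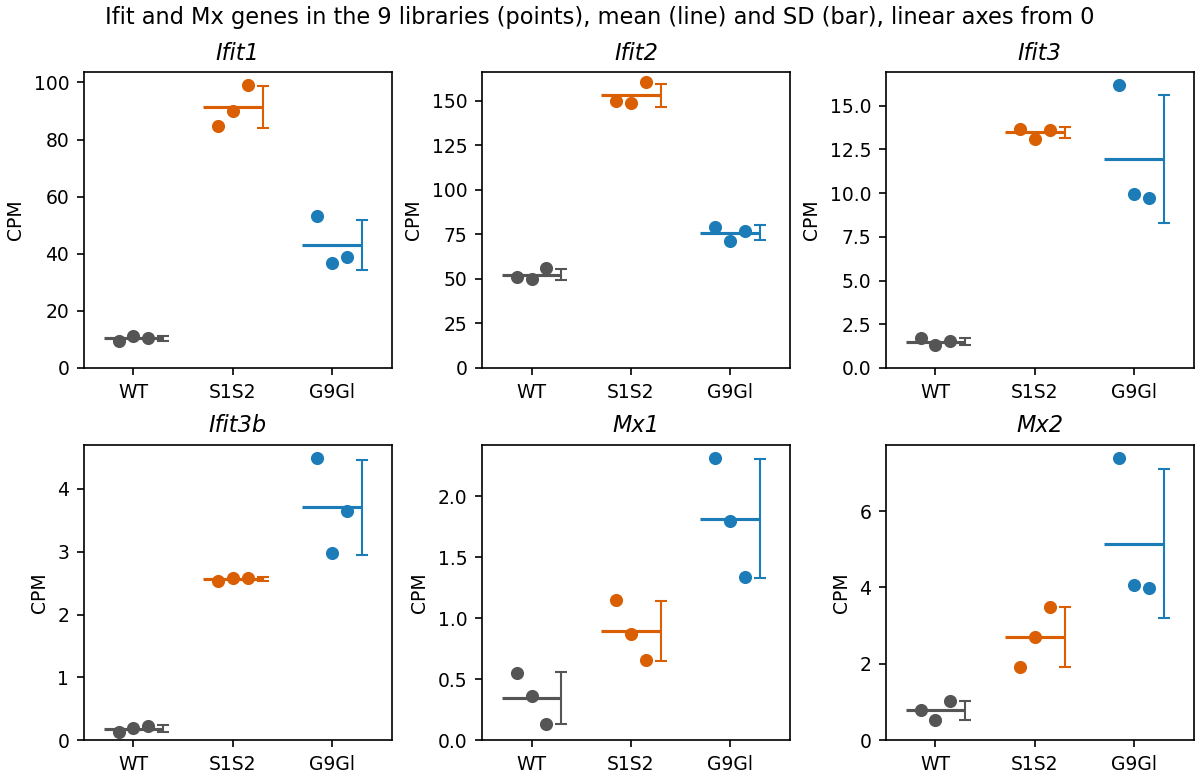
CPM (linear axes from 0) of each Ifit and Mx gene in the 9 libraries, with a point per library, a line at the genotype mean and a bar of 1 SD. All S1S2 and G9Gl points lie above all WT points for each gene; Ifit1 and Ifit2 are highest in S1S2, and Ifit3b, Mx1 and Mx2 in G9Gl.

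In S1S2 against WT 5 of the 6 genes were called higher, all but Mx1, where 4.66% of the 15540 genes tested were called higher and 4.34% lower. In G9Gl against WT 5 of 6 were again called higher, all but Ifit2, where 6.77% of tested genes were called higher and 3.4% lower. Nothing is read from these shares, since the genes were selected on these contrasts. In both comparisons all 6 genes had every mutant library above every WT library, and 28.5% and 27.3% of tested genes did so in S1S2 and G9Gl. The median log2 fold change of the 6 was 2.46 in S1S2 and 2.52 in G9Gl, against medians of 0.00 and -0.01 over all tested genes. Both comparisons use the same 3 WT libraries.

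The direct comparison of G9Gl with S1S2 divided the 6 genes. Ifit1 was lower in G9Gl by a log2 fold change of -1.08 ± 0.18 and Ifit2 by -1.01 ± 0.06, and both were called, where 5.08% of tested genes were called lower. Ifit3 overlapped, with a log2 fold change of -0.17 ± 0.24. Ifit3b at 0.53 ± 0.17, Mx1 at 1.01 ± 0.31 and Mx2 at 0.93 ± 0.38 were higher in each G9Gl library than in each S1S2 library, which was so for 30.5% of tested genes, while 30.3% were lower without overlap. In edgeR 0 of the 6 were called higher, where 7.97% of tested genes were. At an unadjusted p under 0.05, 3 of the 6 were higher in edgeR, and DESeq2 also called 0. Both called values sit close to the 2-fold limit. A test against that limit itself called 0 of the 6 genes in either direction, where it called 8.63% of all tested genes.

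The median over the chromosome on which the Ifit genes lie was shifted, although single genes there took either direction. The median log2 fold change of the 487 tested genes on chromosome 19 was 0.34 for S1S2 and -0.17 for G9Gl relative to WT, and -0.52 between G9Gl and S1S2. On chromosome 16, with 451 tested genes, these medians were -0.09, -0.20 and -0.09, so that relative to WT the G9Gl median was further from 0 on chromosome 16 than on chromosome 19. With the median of each gene's chromosome removed, Ifit1 differed between the mutants by -0.58 and Ifit2 by -0.51, so neither was called. In the same setting Ifit3 turned to 0.33, and Ifit3b at 1.03, Mx1 at 1.13 and Mx2 at 1.04 were called higher in G9Gl. Of all tested genes 12.9% were called there in either direction. Against WT the Ifit values moved less in proportion, with Ifit1 at 2.80 in S1S2 and 2.22 in G9Gl, and Ifit2 at 1.21 and 0.70. The part of a change in chromosome number in these values was not tested.

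**Figure D2:**
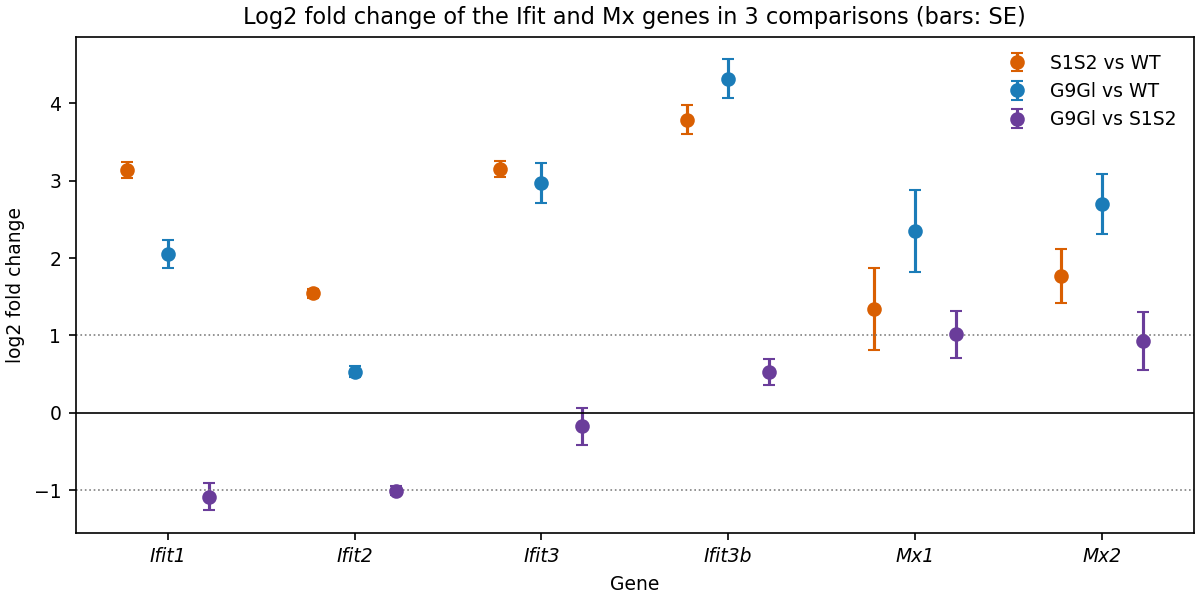
Log2 fold change (y axis) of each Ifit and Mx gene (x axis) for S1S2 or G9Gl relative to WT and for G9Gl relative to S1S2, with bars of 1 SE and dotted lines at 2-fold in each direction. Against WT all values are above 0, from 0.53 for Ifit2 in G9Gl to 4.32 for Ifit3b in G9Gl, and between the mutants Ifit1 and Ifit2 lie near -1 and Mx1 and Mx2 near 1.

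Levels of different genes were compared per kb of annotated exon. In WT the order was Ifit2 at 13.4 ± 0.81 CPM per kb (SD, n = 3), Ifit1 at 3.90 ± 0.35, Ifit3 at 0.865 ± 0.106, Mx2 at 0.217 ± 0.07, Mx1 at 0.0921 ± 0.056 and Ifit3b at 0.0911 ± 0.027. There the Mx1 and Ifit3b libraries overlapped, and the lowest Mx2 library stood level with the highest Mx1 library at 0.146. In S1S2 it was Ifit2 at 39.0 ± 1.64, Ifit1 at 34.4 ± 2.75, Ifit3 at 7.72 ± 0.18, Ifit3b at 1.28 ± 0.02, Mx2 at 0.747 ± 0.214 and Mx1 at 0.236 ± 0.065, without overlap of neighbours in that order. In G9Gl it was Ifit2 at 19.3 ± 1.06, Ifit1 at 16.2 ± 3.35, Ifit3 at 6.85 ± 2.10, Ifit3b at 1.85 ± 0.38, Mx2 at 1.42 ± 0.54 and Mx1 at 0.480 ± 0.129, and there the libraries of Ifit2 and Ifit1, and those of Ifit3b and Mx2, overlapped. Ifit3b stood last in WT, level with Mx1, and above Mx1 and Mx2 by mean in both mutants.

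The make-up of the family differed between genotypes. Ifit1 and Ifit2 together made up 93.1% ± 0.86 of the summed CPM per kb of the 6 genes in WT, 88.0% ± 0.40 in S1S2 and 77.3% ± 2.93 in G9Gl. Ifit2 alone had a share of 72.1% ± 1.44 in WT, 46.8% ± 0.79 in S1S2 and 42.3% ± 4.57 in G9Gl, while its level in CPM was higher in both mutants. Ifit3 made up 4.68% ± 0.64 in WT, 9.29% ± 0.50 in S1S2 and 14.6% ± 2.12 in G9Gl. The ratio of Ifit1 to Mx2 CPM was 14.4 ± 6.04 in WT, 35.2 ± 7.81 in S1S2 and 8.70 ± 1.35 in G9Gl, so S1S2 and G9Gl lay on opposite sides of WT. The summed level of the 6 genes was 65.6 ± 3.22 CPM in WT, 263.9 ± 14.0 in S1S2 and 141.5 ± 18.9 in G9Gl.

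**Figure D3:**
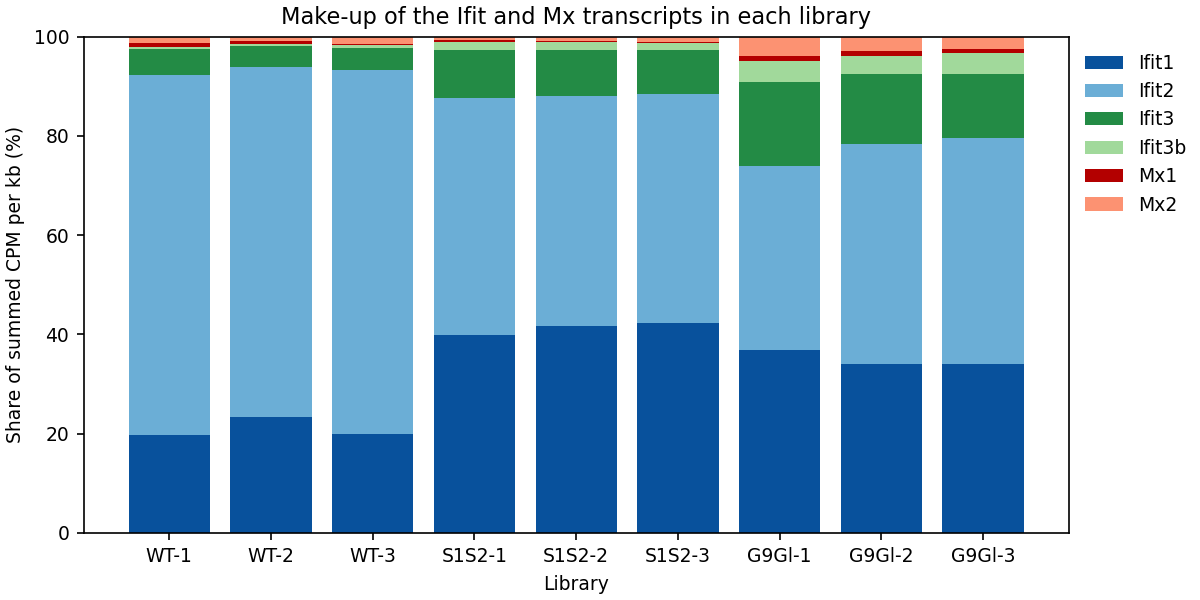
Share (%) of each Ifit and Mx gene in the summed CPM per kb of the 6 genes, as stacked bars for each of the 9 libraries. Ifit2 fills 72.1% of the WT bars on average and 42.3% of the G9Gl bars, and the share of Ifit3, Ifit3b and the Mx genes is widest in G9Gl.

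Replicates of G9Gl were not alike for these genes. G9Gl replicate 1 was the highest G9Gl library for 6 of the 6 genes, where 35.2% of all tested genes were highest in it. It was also the highest for 46 of the 61 tested genes of the interferon pathway. The coefficient of variation within G9Gl ran from 5.51% for Ifit2 to 37.96% for Mx2, within S1S2 from 1.32% for Ifit3b to 28.7% for Mx2, and within WT from 6.07% for Ifit2 to 61.02% for Mx1. Without G9Gl replicate 1, the genes called against WT were again 5 of the 6, where 9.91% of all tested genes were called. They ran from 1.88 for Ifit1 to 4.16 for Ifit3b, and Ifit2 had 0.50 and was not called. Between the mutants Ifit1 was then at -1.26 and Mx2 at 0.57, where they had -1.08 and 0.93 with it. WT replicate 3 and S1S2 replicate 3 were each the highest of their genotype for 3 of the 6 genes, and for 40 and 37 of the 61 pathway genes, where 39.5% and 36.4% of all tested genes were.

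Ifit1bl1 and Ifit1bl2 are Ifit1-like genes between Ifit3 and Ifit1. Ifit1bl2 had 2, 3 and 5 counts in the WT libraries, 8, 28 and 19 in S1S2 and 38, 19 and 22 in G9Gl. It was called higher in both mutants, at log2 fold changes of 2.81 ± 0.47 and 3.04 ± 0.37. Ifit1bl1 reached 2 to 11 counts per library and was not tested.

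Genes around the clusters did not share one direction. Of 22 other annotated genes within 500 kb of the Ifit cluster 8 were tested, and 1 was called higher and 1 lower in S1S2, and 2 higher and 1 lower in G9Gl, Ifit1bl2 being one of those higher in each. Over all tested genes 4.66% were called higher and 4.34% lower in S1S2, and 6.77% and 3.4% in G9Gl. Lipa, the lysosomal acid lipase gene nearest to the Ifit2 end, had log2 fold changes of 0.83 ± 0.09 and 0.19 ± 0.08 and was not called. Acta2, the smooth muscle actin gene, was lower in S1S2 at -2.68 ± 0.07 and higher in G9Gl at 1.96 ± 0.06, and Pank1, a pantothenate kinase gene on the other side, was lower in G9Gl at -1.38 ± 0.07. Between the mutants the 8 neighbours had a median of -0.41, beside -1.08 for Ifit1 and -1.01 for Ifit2. Of 13 genes around the Mx genes 6 were tested. Bace2, a protease gene that adjoins Mx1, was lower in G9Gl at -3.27 ± 0.23, as was Dscam at -1.56 ± 0.17, where Mx1 and Mx2 were higher. In S1S2 edgeR called 0 of these 6 and DESeq2 called 0, with 3 higher and 2 lower at an unadjusted p under 0.05.

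**Figure D4:**
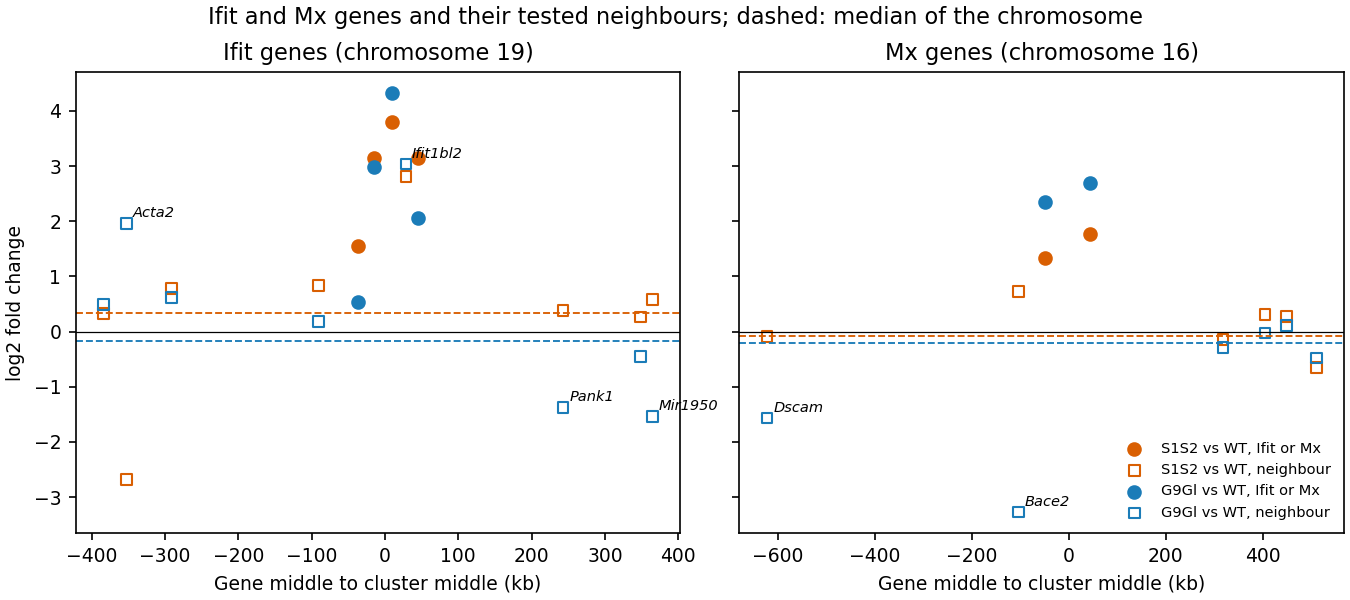
Log2 fold change against WT (y axis) of the Ifit and Mx genes (filled circles) and their tested neighbours (open squares) by distance in kb from the middle of each cluster (x axis), in S1S2 and G9Gl, with dashed lines at the chromosome medians. The Ifit and Mx genes stand above 0 in both mutants, while Acta2 (-2.68 in S1S2, 1.96 in G9Gl) and Bace2 (0.72 in S1S2, -3.27 in G9Gl) take other directions.

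The rest of the pathway was described with lists of 84 genes, of which 61 were tested. In S1S2 against WT 23 were called higher and 0 lower, with 6 lower at an unadjusted p under 0.05 in edgeR and 0 called lower by DESeq2. In G9Gl against WT 33 were called higher and 1 lower. Over all tested genes 4.66% were called higher in S1S2 and 6.77% in G9Gl, and the lists were chosen with earlier results of these data known. The median log2 fold change of the 61 was 0.63 in S1S2 and 1.26 in G9Gl, over lists that include receptors, kinases and adaptors.

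At the start of the pathway, none of the 20 interferon ligand genes reached the level needed for a test, and 16 had 0 counts in every library. Ifnb1, the interferon beta gene, was among them, and a count of 0 allows up to 3 counts per library. Of 8 tested receptor and kinase genes edgeR called 0 in each comparison, as did DESeq2, where edgeR called 9% to 13.1% of all tested genes. At an unadjusted p under 0.05 there were 4 higher and 4 lower in S1S2 and 2 higher and 4 lower in G9Gl. Ifnar1 had 72.4 ± 1.00 CPM in WT, 66.2 ± 2.41 in S1S2 and 61.6 ± 2.83 in G9Gl.

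Among 7 tested transcription factor genes, 2 were called higher in each mutant, where 4.66% of all tested genes were in S1S2 and 6.77% in G9Gl. Irf7, an interferon-induced factor that amplifies interferon transcription, was at 1.77 ± 0.44 CPM in WT, 8.56 ± 1.43 in S1S2 and 22.5 ± 5.64 in G9Gl. Its log2 fold changes were 2.26 (adjusted p = 1.59e-07, edgeR) and 3.65 (adjusted p = 5.31e-11, edgeR). Irf9, the DNA-binding subunit of the ISRE complex, was called in G9Gl at 1.799 (adjusted p = 1.11e-11, edgeR) and had 0.58 in S1S2. Irf5 was the reverse, called in S1S2 at 1.56 (adjusted p = 1.59e-08, edgeR) and at 0.37 in G9Gl. Stat2, the partner of Irf9 in the ISRE complex, had 0.53 in S1S2 and 0.74 in G9Gl and was under the 2-fold limit in both.

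Of 6 inhibitor genes only Usp18 was called. Usp18, which removes ISG15 from proteins and blocks signalling at the receptor, was at 0.181 ± 0.122 CPM in WT, 3.68 ± 0.19 in S1S2 and 23.0 ± 5.22 in G9Gl, and the G9Gl level exceeded that of S1S2 by 2.63 on the log2 scale (adjusted p = 2.45e-10, edgeR). Of 13 sensor and adaptor genes 2 were called higher in S1S2 and 5 in G9Gl, where 4.66% and 6.77% of all tested genes were. Ifih1, the gene of the RNA sensor MDA5, had 2.28 in S1S2 (adjusted p = 7.64e-14, edgeR) and 2.67 in G9Gl (adjusted p = 4.78e-15, edgeR). Zbp1, a sensor of left-handed nucleic acid, had 2.28 and 2.27, and Dhx58, which codes for LGP2, was called in G9Gl at 1.81 and had 0.47 in S1S2.

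Of 27 other tested effector genes 18 were called higher in S1S2, and 25 higher and 1 lower in G9Gl. Over all tested genes 4.66% were called higher in S1S2, and 6.77% higher and 3.4% lower in G9Gl. The effector genes had median log2 fold changes of 2.47 in S1S2 and 2.58 in G9Gl, close to the 2.46 and 2.52 of the Ifit and Mx genes. Between the mutants 13 of the effector genes were called higher in G9Gl and 5 were called lower, where 7.97% and 5.08% of all tested genes were. The 3 with the widest change against WT were among the 13. Trim30a stood at 0.141 ± 0.085 CPM in WT, 1.95 ± 0.33 in S1S2 and 86.4 ± 11.7 in G9Gl, and was 5.49 higher on the log2 scale in G9Gl than in S1S2 (adjusted p = 6.43e-16, edgeR). Oas1a, a synthetase whose product activates RNase L, stood at 0.127 ± 0.064, 1.89 ± 0.28 and 32.4 ± 5.69 CPM and differed by 4.12 (adjusted p = 2.8e-13, edgeR). Oas2 stood at 0.0747 ± 0.019, 1.36 ± 0.17 and 14.0 ± 3.40 CPM and differed by 3.37 (adjusted p = 7.09e-11, edgeR).

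The 5 effector genes that were lower in G9Gl than in S1S2 were Rsad2, Cmpk2, Cxcl10, Oasl1 and Samd9l, named after their values were seen. Rsad2, the gene of the antiviral enzyme viperin, had 3.75 ± 0.21 CPM in WT, 65.8 ± 2.86 in S1S2 and 13.5 ± 2.27 in G9Gl, the order shown by Ifit1. Its difference between the mutants was -2.29. Cxcl10, a chemokine gene, differed by -1.85, Cmpk2, a nucleotide kinase gene beside Rsad2, by -1.803 and Oasl1 by -1.69. Samd9l was higher than WT in S1S2 at 1.51 and lower in G9Gl at -1.90. Of the 23 effector genes with a promoter window 12 held GAAANNGAAA. So did 11 of 19 ligand genes, none of which reached the level needed for a test, 3 of 10 sensor genes, 2 of 8 transcription factor genes, 1 of 4 inhibitor genes and 0 of 8 receptor and kinase genes.

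**Figure D5:**
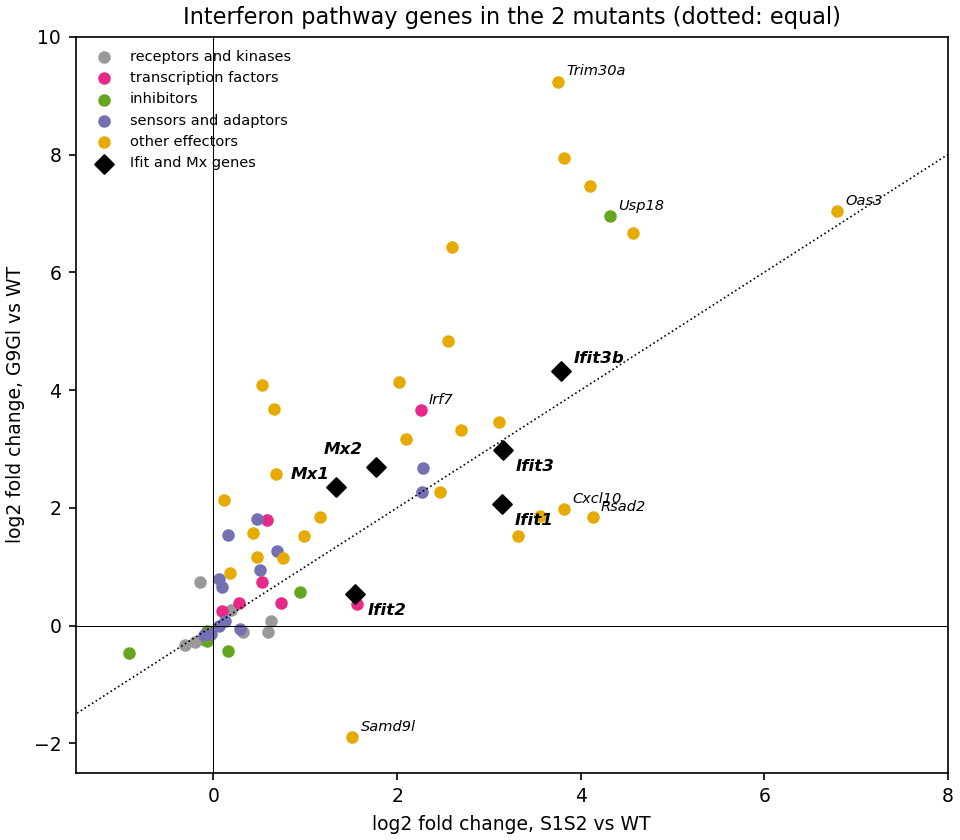
Log2 fold change against WT in S1S2 (x axis) and in G9Gl (y axis) of the 61 tested pathway genes, coloured by role, and of the 6 Ifit and Mx genes (diamonds), with a dotted line of equal values; both axes use the same WT libraries. Ifit1, Ifit2 and, narrowly, Ifit3 lie below the line, as do Rsad2 and Cxcl10, and Mx1, Mx2 and Ifit3b lie above it, as do Irf7 and Usp18.

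The 10 other genes whose log2 CPM followed the 6 genes most closely over the 9 libraries had mean Pearson correlations of 0.893 to 0.898 with them. They were Cfl2, Isg15, Atp6v0b, Cyld, Oas3, Apob, Rap1gap, Tdrd7, Zbp1 and Rab11fip5. The 9 points fall into 3 genotypes, so such a value mostly compares the order of 3 means. Size was not part of it, since Cfl2 differed from WT by 0.22 in S1S2 and 0.20 in G9Gl, and Isg15, the ubiquitin-like effector, by 2.47 and 2.27.

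Library totals were 21319778 to 32157623 counts. In S1S2 the RNA of Suv39h1 was lower than in WT by a log2 fold change of -1.36 and that of Suv39h2 was 0.70 higher, and in G9Gl Ehmt2 was lower at -1.20 and Ehmt1 at -1.04. A frameshift need not remove the RNA, so a level kept or raised does not contradict the label. All 8 fibroblast markers were over the floor of 3 counts, and their summed level was 10640 to 12060 CPM in WT, 7669 to 7725 in S1S2 and 8491 to 9364 in G9Gl. Single fibroblast markers differed, with Col3a1 at 0.124-fold and Col1a2 at 0.165-fold of WT in S1S2, Vim at 1.65-fold in S1S2, and Thy1 at 0.411-fold in S1S2 and 7.69-fold in G9Gl. All fibroblast markers but Thy1 had means below WT in G9Gl, from 0.396-fold for Pdgfrb to 0.940-fold for Lox. Pdgfrb was called lower in both mutants, with 0.454-fold in S1S2. The 8 leukocyte markers summed to 1.97 to 2.15 CPM in WT, 2.25 to 2.84 in S1S2 and 1.94 to 2.45 in G9Gl, with 4 of 8 at 0 in all libraries. The 5 endothelial markers summed to 0.123 to 0.193 CPM in WT, 1.55 to 1.70 in S1S2 and 0.790 to 2.35 in G9Gl, so their sum too was higher in both mutants without overlap. Single endothelial markers differed, with Kdr called in S1S2, Cdh5 called in G9Gl and Emcn at 0 in all libraries. Pecam1 was at 2.53-fold of WT in S1S2 and 0.722-fold in G9Gl, on 2 to 14 counts per library. Tek had at most 1 count per library in WT and S1S2 and 4 to 13 in G9Gl. The 5 epithelial markers summed to 0.297 to 0.548 CPM in WT, 4.66 to 5.55 in S1S2, mostly from Krt8, and 0.294 to 0.395 in G9Gl, with Krt5 at 0 in all libraries. Their part in the Ifit and Mx values was not tested, and in bulk RNA fewer cells of a type and less RNA per cell cannot be told apart.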

How the data were processed

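Stranded total RNA libraries of 9 MEF cultures were sequenced as paired-end reads. The submitters' processing notes name GRCm38, STAR 2.5.2b and DESeq2 for these libraries, and the authors deposited raw counts per gene. The study's methods for RNA-seq add adapter trimming and counting with TEtranscripts, which can share out reads that map to several places; that this counting made the present table is not stated. The annotation release and the strand setting of the counting are not given in the sources used here. The deposited counts name 47937 Ensembl genes, of which 47224 matched GENCODE M21 (GRCm38), which gave symbols and positions, and 713 did not. Genes were filtered with filterByExpr, which left 15540, normalised by TMM and fitted in 1 quasi-likelihood model over the 3 genotypes with edgeR 4.0.16 in R 4.3.3 (biological coefficient of variation 5.36%). Calls needed a change of at least 2-fold and p no higher than 0.01 after Benjamini-Hochberg adjustment over all tested genes. CPM were computed with TMM-scaled totals. Log2 fold changes are those of edgeR with a prior count of 0.125, and their SE is that of the difference of genotype means of log2 CPM with a prior count of 2.

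The Ifit and Mx genes and all gene lists were chosen with earlier results of these data known. The text names the 6 genes, their relatives and neighbours, per list the 3 called genes with the largest change in either mutant, Stat2, Irf7, Irf9, Ifnb1 and Usp18, the 10 genes most like the 6, the targeted KMT genes and, as said there, a few seen in the data. One gene of the lists is not reported here. Replicates with the same number were not paired: the correlations of their deviations from the genotype means ran from -0.0686 to 0.124. Alternatives were DESeq2 1.42.0, its size factors, no composition factor, other filters and thresholds, glmTreat, pairwise fits, a replicate block, leaving out each library, removal of chromosome medians, another prior count and the sum of Ifit3 and Ifit3b. The difference of mean log2 CPM with a prior count of 2 was added after seeing the data. Counting intervals are not given, since errors come from 3 libraries.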

Additional observations from a re-analysis of the deposited data

Results flagged for a closer look

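Of the Ifit and Mx genes, which were chosen with such values known, Ifit1 differed between G9Gl and S1S2 by a log2 fold change of -1.08 and Ifit2 by -1.01, both higher in S1S2. They were called by edgeR at the 2-fold limit and not by glmTreat, and with the chromosome 19 median removed they differed by -0.58 and -0.51 and were not called. The edgeR test of G9Gl against S1S2 called 24 of the 61 tested pathway genes, 18 higher and 6 lower in G9Gl, where 7.97% of all tested genes were called higher and 5.08% lower. Of those named above, Irf7 at 1.40, Irf9 at 1.22, Usp18 at 2.63, Dhx58 at 1.33, Trim30a at 5.49, Oas1a at 4.12 and Oas2 at 3.37 were higher in G9Gl. Irf5 at -1.19, Rsad2 at -2.29, Oasl1 at -1.69, Cmpk2 at -1.803, Cxcl10 at -1.85 and Samd9l at -3.41 were lower. Among the neighbours Acta2 was higher at 4.65, and Pank1 at -1.76, Mir1950 at -2.13, Bace2 at -3.99 and Dscam at -1.47 were lower in G9Gl. The Mir1950 value is imprecise, with 5 to 15 counts per S1S2 library and 3, the floor, in each G9Gl library. The targeted genes Suv39h1 at 1.296 and Ehmt2 at -1.60 differed as well. The cause was not tested for any of them.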

How the results depend on the processing

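Of the 6 genes, 4 to 6 were called in S1S2 against WT and 3 to 6 in G9Gl against WT over 16 alternatives, and all fold changes against WT kept their sign. With 5.23% of the genes then tested called, asking for at least 10 counts in every library left 3 called in G9Gl against WT, since Ifit3b and Mx1 were not tested. In G9Gl against S1S2 this filter called 7.38% of tested genes. There it left 1 of the 6, Ifit1, with Ifit2 at -0.998 and so just under the 2-fold limit. In this comparison an adjusted p of at most 0.05 with no fold limit called 5, where it called 53.3% of all tested genes, glmTreat called 0, where it called 8.63%, and leaving out a library gave 1 to 4. Without G9Gl replicate 2, where 12.9% of all tested genes were called, neither Ifit1 (-0.985) nor Ifit2 (-0.968) was called and the 1 call was Mx2, higher in G9Gl. Without G9Gl replicate 3, where 12.7% of all tested genes were called, the 4 calls were Ifit1 and Ifit2 lower and Mx1 and Mx2 higher. Ifit3 turned to 0.33 there once chromosome medians were removed, and Ifit3b to -0.036 when summed with Ifit3. With an adjusted p of at most 0.05 and no fold limit the pathway genes called were 47 in S1S2 against WT, 54 in G9Gl against WT and 47 in G9Gl against S1S2, beside 48.9%, 45.9% and 53.3% of all tested genes, with both limits relaxed together. Same-numbered libraries share only a number. The fit with the replicate block called 6 and 5 of the Ifit and Mx genes in S1S2 and G9Gl against WT and 3 in G9Gl against S1S2. It called 8.9%, 10.1% and 13% of all tested genes in these comparisons. Mx1 was added in S1S2 against WT (1.36) and in G9Gl against S1S2 (1.03). Ifit1 and Ifit2 lay at the 2-fold limit between the mutants, so small shifts ended or restored their calls. The low counts of Mx1 and Ifit3b in WT limit the precision of their fold changes.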
